A study of Mus musculus with 2 samples.

Results

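The cytosolic ribosomal protein genes were examined in male mouse germ cells at E12.5 and E13.5. Members were all genes listed for both stages whose symbol is Rpl or Rps followed by a digit, or Rplp0, Rplp1, Rplp2 or Rpsa. The Rps6k kinases, Rps27l and names with -ps were left out. The rule took 86 of 17244 listed genes, 33 named for the small and 53 for the large subunit, and all 86 were present in both tables. By name it also takes in Rps19bp1, which encodes a protein that binds Rps19 and is not part of the ribosome, and Rpl6l, a processed pseudogene in GENCODE vM21. The other 85 are annotated as protein coding. The ribosomal proteins Fau and Gnb2l1 (Rack1) carry other names and were followed separately.

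Male CD1 embryos gave the cells, and FACS on the Oct4-GFP reporter, which labels the germ line, picked them. Each stage was a single group of 1 library, prepared with the 10x v2 kit, a 3' assay that counts molecules by UMI. Stage and library therefore cannot be told apart, and no test between stages was possible. Intervals given below are exact 95% intervals and cover counting error only. The tables held 2847 and 2992 barcodes, of which 2529 and 2611 were germ-like by their markers. These summed to 59762537 and 58771934 UMIs, and the median cell held 23415 and 21641 UMIs in turn. All 15 germ markers were detected in 6 of the 7 germ-like clusters, and 12 in the seventh. Sertoli-like barcodes numbered 4 and 25, and 24 barcode sequences occurred in both tables.

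The ribosome's small subunit reads the mRNA and its large subunit forms the peptide bond. Each holds a fixed set of proteins, and most of these are needed in equal number. Their mRNAs are among the most abundant of a growing cell. Most begin with a run of pyrimidines, the 5' TOP motif, through which mTORC1 and Larp1 control their translation together. Several members have paralogs with restricted expression, and some of those are known from the male germ line, where X-linked genes are silenced later, in meiosis.

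The start regions of members are shown to illustrate the pyrimidine run that many share, from the most abundant members to the paralogs and to those that differed between the libraries. The windows run from 30 bases before the RefSeq start to 20 bases from it, on the gene's strand, in build GRCm38.p6. Capitals mark the longest run of C and T that reaches into the 10 bases on either side of the start. Rpl13 (chr8:123102320-123102369, + strand) and Rpl13a (chr7:45128726-45128775, - strand) were among the 3 most abundant members. Rpl39 (chrX:37085203-37085252, - strand) is the X-linked partner of Rpl39l (chr16:10170198-10170247, + strand), and Rpl22l1 (chr3:28805478-28805527, + strand) is the paralog of Rpl22.
Rpl13: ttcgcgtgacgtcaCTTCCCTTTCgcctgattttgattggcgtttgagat
Rpl13a: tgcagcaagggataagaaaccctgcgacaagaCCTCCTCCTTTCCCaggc
Rpl39: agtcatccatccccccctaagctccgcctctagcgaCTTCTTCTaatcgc
Rpl39l: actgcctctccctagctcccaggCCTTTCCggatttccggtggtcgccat
Rpl22l1: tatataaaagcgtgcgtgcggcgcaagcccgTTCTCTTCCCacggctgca

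The next windows belong to members whose level differed most between the libraries. They are Rpl26 (chr11:68901536-68901585, + strand), Rplp0 (chr5:115559437-115559486, + strand), Rps2 (chr17:24720033-24720082, + strand), Rps3a1 (chr3:86142649-86142698, - strand) and Rps26 (chr10:128626487-128626536, - strand).
Rpl26: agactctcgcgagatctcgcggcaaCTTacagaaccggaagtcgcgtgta
Rplp0: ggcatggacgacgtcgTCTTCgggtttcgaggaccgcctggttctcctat
Rps2: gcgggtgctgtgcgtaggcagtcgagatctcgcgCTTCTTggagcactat
Rps3a1: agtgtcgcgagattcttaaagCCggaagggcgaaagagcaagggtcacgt
Rps26: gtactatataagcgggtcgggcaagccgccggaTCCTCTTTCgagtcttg

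Of the members, 65 had an entry in the RefSeq table, with 76 promoters. A run of 8 or more C or T was found at 29 of the 76 (38.2%), against 13.7% of all 32851 promoters. CCGGAAG, the core bound by ETS factors, read on either strand of the 300 bases around the start, was in 34.2% of member promoters and in 8.86% of all. AAGATGG, the core bound by YY1, was in 15.8% and 6.34% on either strand. A run of 8 or more was present for 1 of the 6 matched members that lay outside 1.2-fold between the libraries (Rps26), and for 27 of the 58 matched members within it. RefSeq starts can lie some bases from the start used in these cells, and a match is a description of these letters only.

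The members together took up 30.8% (E12.5) and 31.7% (E13.5) of germ-like UMIs. The E13.5 level was 1.03 times the E12.5 level (95% interval 1.03 to 1.03), or 0.04 on the log2 scale. Small subunit members went from 13.4% to 13.8% and large subunit members from 17.4% to 18.0%. The ratio of small to large subunit transcripts was 0.771 and 0.764, so the balance of the subunits moved by less than 1 part in 100. The stalk genes Rplp0, Rplp1 and Rplp2 summed to 1.66% and 1.60%, a ratio of 0.961. With Gm8730, a near-identical pseudogene copy of Rplp0, they summed to 1.70% and 1.77%, a ratio of 1.04, so the direction rests on that copy. The 10 most abundant members summed to 7.36% and 7.85%. The summed log2 ratio was 0.09 with a denominator free of members, mitochondrial genes and the 50 most abundant genes, and 0.03 under a stricter cell filter. These are shares of captured UMIs, so they do not measure the amount of ribosomal protein mRNA in a cell.

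Most members were abundant, and a few stood far lower. The median member stood at 3663 and 3635 CPM, the UMIs of a gene per 1e6 UMIs of the library, in E12.5 and E13.5 order, and 76 of the 86 were at 1000 or more in both libraries. Rpl13 was the most abundant, with 8577 CPM at E12.5 and 9406 at E13.5. Rpl13a stood at 7863 and 8720. At the other end were the paralogs. Rpl3l, the paralog known from striated muscle, was at 1.52 and 1.16, Rpl10l at 15.8 and 13.3, and Rps27rt at 41.4 and 43.4. Rps19bp1 was at 99.3 and 85.6. A 3' assay counts molecules without regard to length, but genes differ in how well their ends are captured and assigned, so these levels order the genes only roughly.

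**Figure D1:**
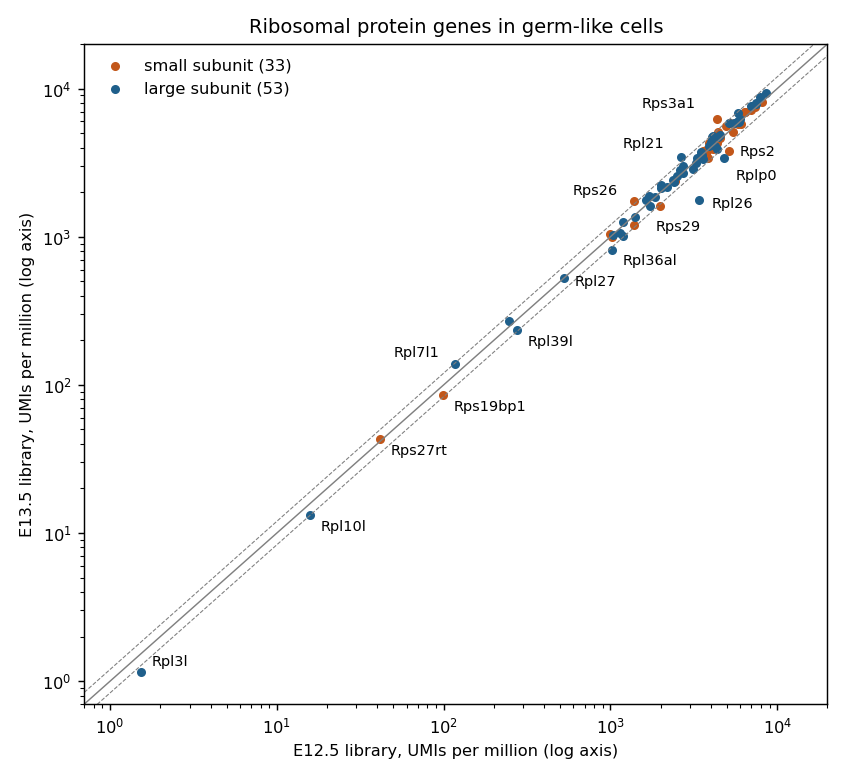
Level of each of the 86 ribosomal protein genes in germ-like cells, E12.5 on the x axis and E13.5 on the y axis, both in CPM on log axes. The solid line is equality and the dashed lines are 1.2-fold, and Rpl26, at 3414 and 1757, lies farthest below it.

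Between the libraries the members were even. A minimum of 10 CPM in either library was met by 85 members, of which 59 lay within 1.1-fold and 77 within 1.2-fold. At least 1.2-fold higher at E13.5 were 3, where 22% of all 7307 genes at that level were, and at least 1.2-fold lower were 5, where 25.6% of all genes were. At least 1.5-fold, 0 members were higher and 1 was lower, beside 8.57% and 9.95% of all genes. The 1586 genes at 100 CPM or more are nearer to the members in level. Among these, 10.8% were at least 1.2-fold higher and 22.2% at least 1.2-fold lower, and of the 82 members at that level the same 3 and 5 were. The median log2 ratio was 0.04 for the members and -0.02 for all genes at 10 or more, and 0.05 and -0.05 at 100 or more. With the denominator free of members, mitochondrial genes and the 50 most abundant genes, 6 members were at least 1.2-fold higher, as Rpl7l1, Rpl4 and Rpl8 joined, and 4 were lower. That scaling moved all genes up alike, and 25.4% of all genes were then higher and 22.5% lower.

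Counting error was small at this depth. The interval of the ratio lay above 1 for 49 members, below 1 for 30, and held 1 for 6. Most of those ratios are near 1, and the spread between libraries of the same stage is not known.

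**Figure D2:**
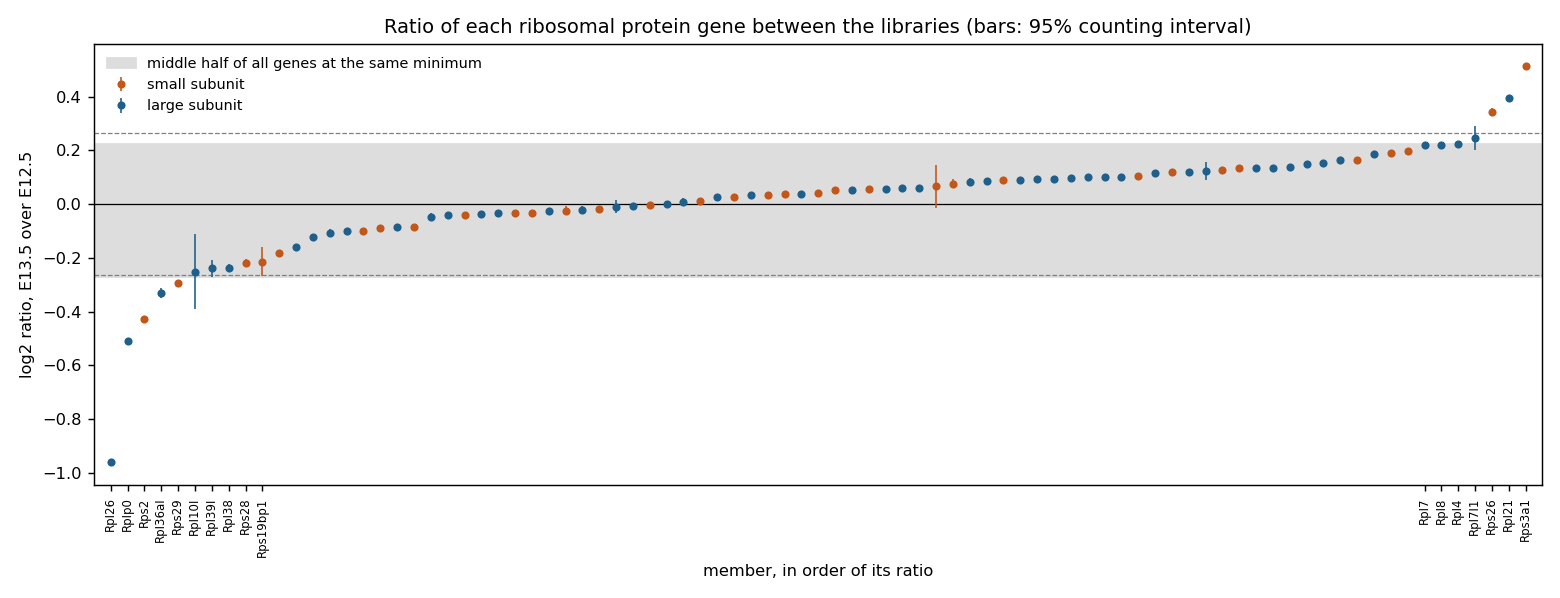
Log2 ratio between the libraries for the 85 members, positive where E13.5 is higher, at 10 CPM or more, in order, with 95% counting intervals. The dashed lines are 1.2-fold and the grey band holds the middle 50% of all 7307 genes at that minimum; 5 members lie under the lower line and 3 over the upper line. Names are given for the members toward both ends.

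Rpl26 was the member with the lowest ratio. It encodes a large subunit protein at the exit of the peptide tunnel and lies at chr11:68901583-68906989. It stood at 3414 CPM at E12.5 and 1757 at E13.5, a ratio of 0.515 (0.511 to 0.518). Rpl26 was picked by this ratio, so its values per cell and per cluster describe the same counts and add no support. The median thinned cell held 47 Rpl26 UMIs at E12.5 (5th to 95th percentile 35 to 63) and 24 at E13.5 (16 to 35). Across the 3 main germ-like clusters of E12.5 the level was 3309 to 3492, and across the 4 of E13.5 it was 1691 to 1848. As a share of member UMIs, its ratio was 0.499 in germ-like cells. In the Sertoli-like barcodes, 4 and 25, this share was 1.16% and 0.626%, a ratio of 0.539 (0.456 to 0.638).

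The other barcodes outside the germ-like class were shallow or rich in mitochondrial UMIs, and held germ markers between the Sertoli-like and the germ-like level. Those under 500 genes numbered 181 and 231, those with 10% or more mitochondrial UMIs 45 and 91, and the unnamed cluster of low UMI counts 88 and 30. Germ markers took a median of 0.399% to 0.747% of UMIs in these sets, 0.805% and 0.859% in germ-like cells, and 0.0411% and 0.0287% in Sertoli-like cells. In these 3 sets the Rpl26 ratio was 0.474 to 0.574.

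Rps2 encodes a small subunit protein by the mRNA entry site and lies at chr17:24718116-24721929. Its level went from 5103 to 3796 CPM, a ratio of 0.744 (0.740 to 0.748). Clusters ran from 4993 to 5245 at E12.5 and from 3627 to 4157 at E13.5. Its 3 near-identical copies in the tables, Gm6576, Gm5786 and Rps2-ps6, summed to 40.4 and 42.4, and the ratio of Rps2 with them was 0.746. Its share of member UMIs had a ratio of 0.721 in germ-like cells and 0.588 (0.509 to 0.680) in Sertoli-like cells.

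Rplp0, the protein that anchors the stalk of the large subunit, lies at chr5:115559467-115563727. It stood at 4817 CPM at E12.5 and 3384 at E13.5, a ratio of 0.703 (0.699 to 0.707). The processed pseudogene Gm8730, on chromosome 8, moved the other way, from 375 to 1760, or 4.69-fold. Summed, Rplp0 and Gm8730 were at 5192 and 5145, a ratio of 0.991 (0.986 to 0.996), on the log2 scale -0.01 in place of -0.51. This sum was chosen after the values were seen. The pair's total was thus nearly level while its split between both rows was not.

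The 954 bases of the Gm8730 transcript match the Rplp0 transcript of 1358 bases at 98.7%, with 12 mismatches. Only 2 of these lie in the last 300 aligned bases, and the final 170 aligned bases are identical. The alignment ends 283 bases before the Rplp0 transcript does. Gm8730 took 7.23% of the pair's UMIs at E12.5 and 34.2% at E13.5. In thinned cells its share had a median of 6.90% at E12.5 (5th to 95th percentile 2.38% to 12.6%) and 34.1% at E13.5 (25.3% to 43.2%). The highest E12.5 cell, at 24.4%, lay under the 5th percentile of E13.5. As a share of member UMIs, Gm8730 was 4.55 times higher at E13.5 in germ-like cells. In Sertoli-like cells this share was 0.104% and 0.588%, or 5.67-fold (3.62 to 9.39). Rplp0 and Gm8730 UMIs varied together across cells within each library, with a Pearson r of 0.305 and 0.471 over 2342 and 2359 thinned cells. Whether the reads of the pair were assigned differently in the libraries was not tested.

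**Figure D3:**
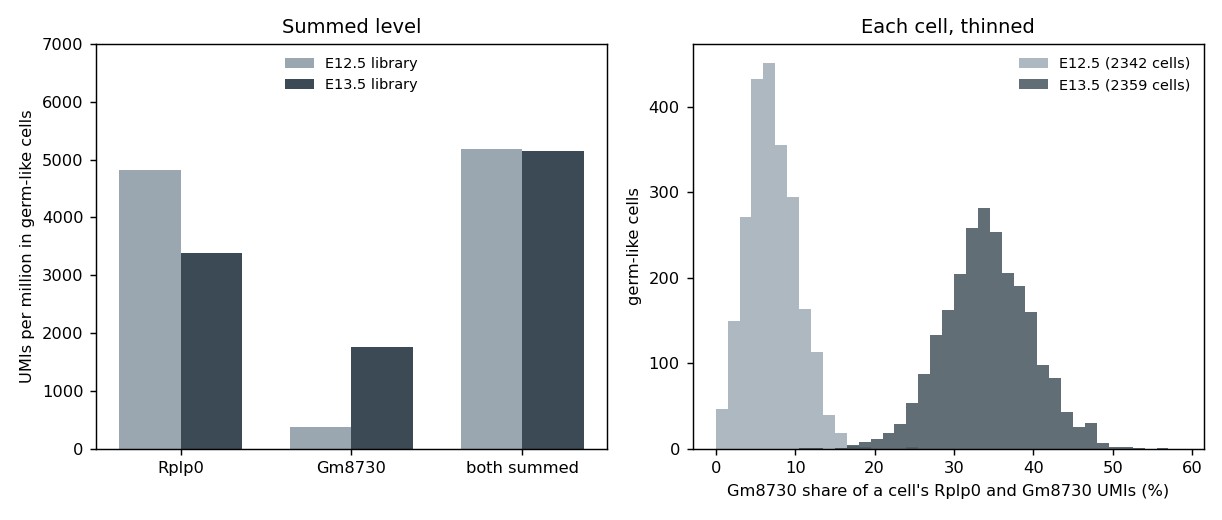
Left, CPM of Rplp0, Gm8730 and their sum in germ-like cells, by library. Right, number of thinned germ-like cells by the share of their Rplp0 and Gm8730 UMIs that fell on Gm8730; the medians are 6.90% at E12.5 and 34.1% at E13.5.

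Near-identical copies were looked for in the same way for every member, as listed genes with a sense transcript at least 95% identical over 200 bases or more. There were 35 for 24 members, which summed to 0.468% of UMIs at E12.5 and 0.628% at E13.5. In CPM these sums were 4682 and 6280, and most of the difference lay in Gm8730. No other member with a copy had a ratio that changed side of 1.2-fold when copies were added. Rpl29 had the largest share on copies, 35.8% and 34.9%, which was steady. Counting all annotated copies, listed or not, the 8 members outside 1.2-fold had a median of 4.5 (0 to 60) and the 77 within it 4 (0 to 47). Rps29 had 0, Rplp0 had 5, Rpl26 had 7, Rps2 had 32 and Rpl21 had 60.

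Rps29 and Rpl36al were lower by less. Rps29, a small subunit protein of the head, was at 1973 and 1608, a ratio of 0.815 (0.808 to 0.822). Rpl36al, the autosomal partner of X-linked Rpl36a, was at 1021 and 812, a ratio of 0.795 (0.786 to 0.805). Its clusters ran from 1019 to 1028 at E12.5 and from 783 to 867 at E13.5. As a share of member UMIs, the ratio of Rps29 was 0.790 in germ-like cells. In Sertoli-like cells it went the other way, at 1.30 (1.06 to 1.61). For Rpl36al the ratio was 0.771 in germ-like cells and 0.968 (0.720 to 1.32) in Sertoli-like cells, where the interval covered equality. In the sets of shallow or high-mitochondrial barcodes the Rps29 ratio was 0.677 to 0.984, and the interval of the highest covered equality. Rps29 (chr12:69157722-69159186, - strand) and Rpl36al (chr12:69182731-69184083, - strand) lie close together on the chromosome. Just inside 1.2-fold lay Rpl10l at 0.840, Rpl39l at 0.847, Rpl38 at 0.848 and Rps28 at 0.858.

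Rps3a1 had the highest ratio. It encodes a small subunit protein, lies at chr3:86137940-86142702, and stood at 4379 at E12.5 and 6254 at E13.5, a ratio of 1.43 (1.42 to 1.44). Clusters ran from 4328 to 4440 at E12.5 and from 6072 to 6595 at E13.5. Rpl21, of the large subunit, was at 2641 and 3475, a ratio of 1.32 (1.31 to 1.32). Rps26, which lines the mRNA exit channel, was at 1379 and 1749, a ratio of 1.27 (1.26 to 1.28). These 3 were picked by their ratio between the libraries, and nearly all cells of each germ-like cluster came from 1 library. Cluster levels therefore restate that ratio for these 3. In Sertoli-like cells the ratio of their share of member UMIs was 1.17 (1.03 to 1.33) for Rps3a1, 1.31 (1.11 to 1.55) for Rpl21 and 1.19 (0.949 to 1.4996) for Rps26. In germ-like cells these were 1.38, 1.28 and 1.23. In the 3 sets of shallow or high-mitochondrial barcodes the ratio was 1.22 to 1.47 for Rps3a1 and 1.18 to 1.34 for Rpl21. For Rps26 it was 0.936 to 1.05, and each of these intervals held 1. Just inside 1.2-fold lay Rpl7l1 at 1.19, Rpl4 at 1.17, Rpl8 at 1.17 and Rpl7 at 1.16.

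The stalk partners of Rplp0 and other members with known roles were even. Rplp1 had a ratio of 1.07, Rplp2 of 1.07 and Rpsa, the small subunit protein also known as a laminin receptor, of 1.15. Rps6, the substrate of S6 kinase, was at 5230 and 5862, and Rps27a, which is made as a fusion with ubiquitin, at 6992 and 7190. The 4 X-linked members were also within 1.2-fold, with Rpl10 at 3128 and 2871, Rpl36a at 1701 and 1890, Rpl39 at 1412 and 1367 and Rps4x at 4504 and 4667.

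The paralogs were read beside their partners. Rpl22l1 was nearly as abundant as Rpl22, at 1138 beside 1189 CPM at E12.5 and 1055 beside 1260 at E13.5. Rpl36al was at 60.03% and 43.0% of Rpl36a, and Rpl39l at 19.6% and 17.1% of Rpl39. Rpl7l1 was at 2.83% and 2.89% of Rpl7, and Rpl10l was 198 and 216 times lower than Rpl10. Rpl3l was 2563 and 3514 times lower than Rpl3, on 91 and 68 UMIs. Rps4l was not listed. Across cells, in counts thinned to a fixed depth, r lay between -0.0332 and 0.0449 for these 6 pairs in both libraries. For Rps27 with Rps27rt it was 0.0964 and 0.125. Sparse counts hold r near 0 for the rarest paralogs, as Rpl3l had a UMI in 2.18% and 1.70% of thinned cells and Rpl10l in 19.6% and 17.1%.

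Rpl39l, known for its expression in the testis, differed between germ-like and Sertoli-like cells of the same library. At E13.5 it was at 234 CPM in germ-like cells and at 6.82 in the 25 Sertoli-like cells, which held 2 Rpl39l UMIs of 293042. As a share of member UMIs it was 23.1 times higher in germ-like cells (6.399 to 191). At E12.5 the 4 Sertoli-like cells held 3 Rpl39l UMIs, and the ratio was 5.77 (1.97 to 28.0). Its partner Rpl39 was at 1367 in germ-like and 1413 in Sertoli-like cells at E13.5. For the 79 members with at least 100 UMIs in the Sertoli-like cells at E13.5, the same ratio ran from 0.570 (Rpl41) to 1.79 (Rplp1). That minimum leaves out members that are low there, Rpl39l among them. Of the other members under it, Rpl10l and Rpl3l had 0 UMIs in the Sertoli-like cells, on 781 and 68 in germ-like cells, and Rpl6l, Rpl7l1, Rps19bp1 and Rps27rt had ratios of 0.572 to 1.24. These members were singled out after their values were seen, and the cells were clustered on all genes, so this is a description. Sertoli-like cells also gave less of their UMIs to members, a median of 22.2% at E13.5 and 24.2% at E12.5.

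Each cell was then thinned to 14000 UMIs, which left out 187 and 252 shallower germ-like cells. The members' share per cell had medians of 30.6% and 31.4%, and its SD over cells was 2.30 and 2.70 percentage points. Counting alone would give 0.390 and 0.393. Without thinning the medians were 30.5% and 31.4%, a difference of 0.871 percentage points. Under the stricter filter, with 2000 genes and under 5% mitochondrial UMIs, the difference was 0.469. That filter kept 2272 and 1597 cells, and median mitochondrial shares were 3.86% and 4.69%.

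At E13.5 the share differed between germ-like clusters. Cluster 1, whose leading gene is Nanos2, a marker of male fate, had a median of 33.8%. The other clusters, 3, 5 and 6, had 30.03%, 30.5% and 30.8%, close to the E12.5 clusters at 31.0%, 29.5% and 31.0%. Markers of S phase and G2/M took 0.265% of UMIs in cluster 1 and 0.573% to 0.787% in the other E13.5 clusters. At E12.5 they took 0.645% to 0.768%.

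Across thinned cells the members' share went with low cycle markers. Spearman's rho with the summed S phase and G2/M markers was -0.299 over 2342 cells at E12.5 and -0.588 over 2359 cells at E13.5. With S phase markers alone it was -0.110 and -0.461, and with G2/M markers -0.162 and -0.529. With the number of genes detected rho was -0.564 and -0.519, and with depth before thinning 0.227 and 0.031. With mitochondrial UMIs it was -0.155 and 0.182. Cells of a library share its chemistry and sequencing, and thinned counts have a fixed total, so a cell with more member UMIs has fewer of other genes.

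**Figure D4:**
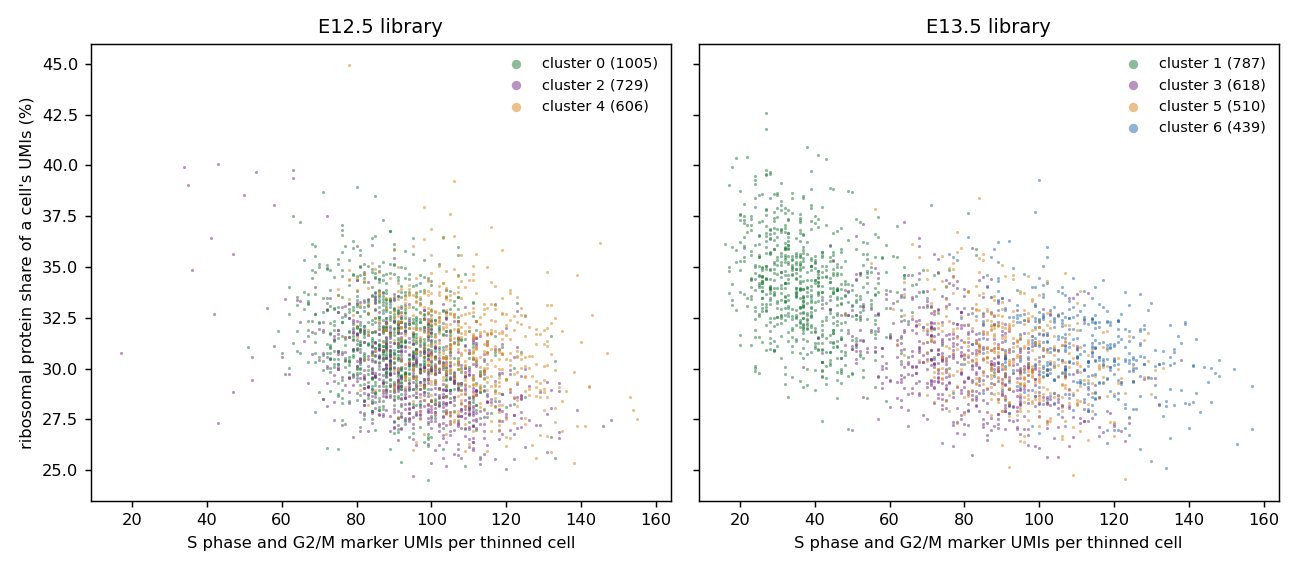
Share of a cell's UMIs in ribosomal protein genes against its UMIs in S phase and G2/M markers, for germ-like cells thinned to 14000 UMIs, by library and cluster. At E13.5 the cells of cluster 1 sit at the left and top, with a median share of 33.8% before thinning.

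Members differed in how far they followed this pattern. Of the 83 members at a mean of 1 or more thinned UMIs, rho with the cycle markers was under 0 for 79 (E12.5) or 80 (E13.5), and its median was -0.111 and -0.269 in turn. Among other genes at that mean, cycle markers left out, 38.6% of 1890 and 36.1% of 1876 were under 0. At a mean of 10 or more UMIs, nearer to the members, 55.3% of 123 and 40.7% of 108 other genes were under 0, beside 77 of 78 members in each library. The most negative at E13.5 were Rpl10a, of the L1 stalk, at -0.544, and Rpl3, near the peptidyl transferase centre, at -0.516. In cluster 1 Rpl10a stood at 4856 CPM and in clusters 3, 5 and 6 at 3727 to 3901. For Rpl3 these were 4732 and 3666 to 3824. Among those above 0 at E13.5 were Rpl39l at 0.058 and Rps19bp1 at 0.086. Rpl36al was at -0.005.

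Pairs of members had mostly small positive correlations across cells. The median rho over 3403 pairs was 0.142 and 0.189, in turn, and 89.6% and 90.8% of pairs were above 0. For pairs of other genes at the same minimum the shares above 0 were 55.02% and 55.7%. At a mean of 10 or more UMIs the median was 0.157 and 0.204 for pairs of members and 0.011 and 0.015 for pairs of other genes. Pairs within a subunit (0.138 and 0.185) were close to pairs across subunits (0.145 and 0.192). These values depend on depth: thinned to 2000 UMIs the medians were 0.031 and 0.043. Among the closest pairs were Rps19 with Rps23 at E12.5 (0.426) and Rpl3 with Rpl10a at E13.5 (0.503, from 0.275 at E12.5). The lowest were Rpl7 with Rps29 at E12.5 (-0.167) and Rpl5 with Rpl41 at E13.5 (-0.151). Against the sum of the other members, Rpl5, a partner of 5S rRNA that also binds Mdm2, had a rho of -0.057 and -0.066, Rpl7l1 -0.127 and -0.052, and Rpl39l -0.054 and -0.039.

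Among 1259 other genes at 100 CPM or more in both libraries, those most like the summed members across cells were Eef1a1 (rho 0.307 and 0.420), Eef2 (0.248 and 0.371), Gm10260 (0.256 and 0.355), Gm10073 (0.258 and 0.207) and Ftl1 (0.080 and 0.382). Eef1a1 and Eef2 are elongation factors. Gm10260 and Gm10073 are near-identical to Rps18 and Rplp1. Among the least alike were Hsp90aa1 (-0.382 and -0.553), Ccnb1, Arl6ip1 and Ncl.

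From cell to cell most members were evener than the median of other genes of like level. The Fano factor, variance over mean, is 1 for counting alone. Over the 83 members its median was 1.53 and 1.59, against a median of 2.27 and 3.04 for the other genes of like mean. Members above their like genes numbered 8 and 9 of 83. The squared CV less counting error had a median of 0.0103 and 0.0127, which corresponds to a CV near 10.2% and 11.3%. The comparison is thin for most members, since 52 and 50 of the 83 had under 10 other genes of like mean, and some as few as 2 (E12.5) and 1 (E13.5).

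By squared CV less counting error, averaged over the libraries, the 5 evenest members included Rpl19, Rpl27 and Rps3. Rpl27 had a Fano factor of 1.05 and 1.01 at a mean of 7.34 and 7.32 UMIs, close to counting alone. By the same measure the most uneven were Rpl39l, Rpl22l1, Rpl7l1, Rps27 and Rps29. Rpl39l had a squared CV less counting error of 0.156 and 0.168, and a Fano factor of 1.60 and 1.54 against 1.11 and 1.12 for 248 and 305 like genes. By the Fano factor, which weighs abundant genes more, the highest were Rplp0 at E12.5 (2.49) and Rps20 at E13.5 (2.96), and Rpl7l1 was low, at 1.08 and 1.12. Rps20 was singled out after its value was seen.

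Rpl22l1 was more uneven in the E13.5 library. Its Fano factor went from 1.96 to 2.73, against 1.38 and 1.53 for 35 and 42 like genes. Its median cell held 15 and 14 UMIs, with 5th to 95th percentiles of 8 to 26 and 6 to 26. In cluster 1 it stood at 1351 CPM, and in the other E13.5 clusters at 886 to 946. At E12.5 its clusters ran from 1072 to 1237. Its partner Rpl22 was at 1361 in cluster 1 and 1170 to 1287 in the others, and had a Fano factor of 1.21 at E12.5 against 1.40 for its like genes. For Rpl22l1, rho with the cycle markers went from -0.036 to -0.399, and for Rpl22 from -0.097 to -0.210.

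**Figure D5:**
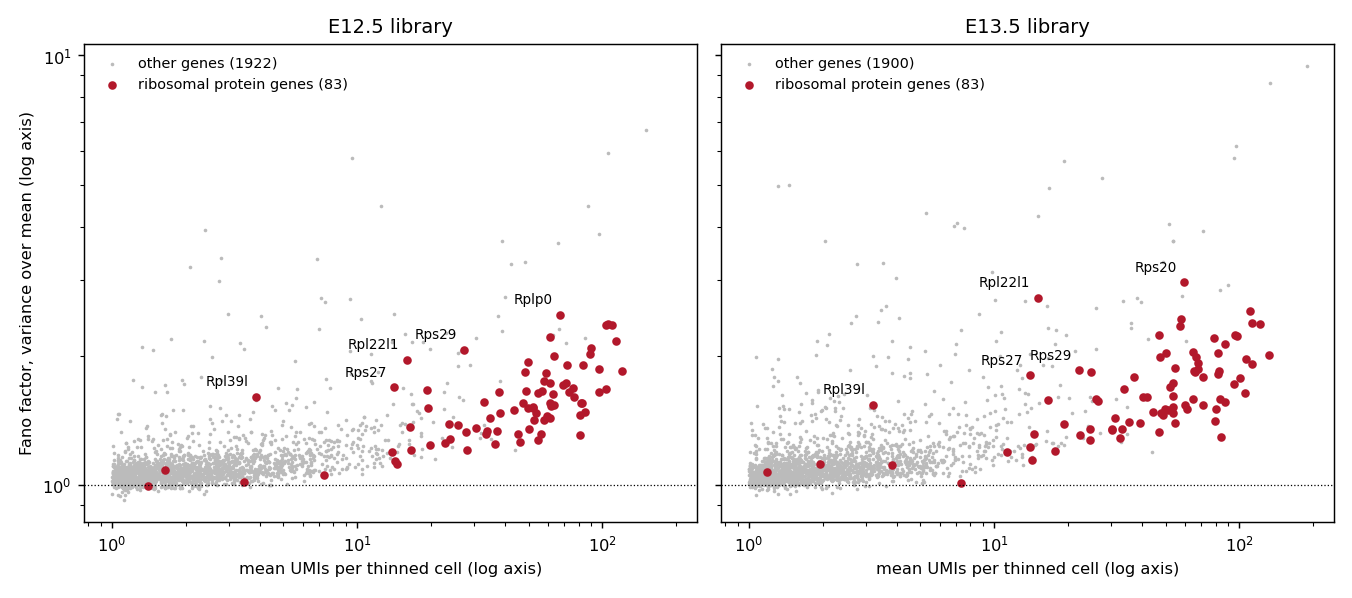
Fano factor against mean UMIs per thinned germ-like cell for genes at a mean of 1 or more, both on log axes, by library. Red points are the 83 ribosomal protein genes, grey points other genes, and the dotted line is counting alone; Rpl22l1 moves from 1.96 to 2.73.

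Most other lists of translation genes, which hold many genes of lower level, had a larger share outside 1.2-fold than the members' 8 of 85. Of all genes at 10 CPM or more, 22% were higher and 25.6% lower by that measure, and no list was tested against that share. Fau (0.941) and Gnb2l1 (1.01) lay within 1.2-fold, and so did all 6 elongation factors. Of 48 initiation factors, 4 were at least 1.2-fold higher and 10 lower, with Eif4g3 highest (14.7 and 33.8, or 2.29-fold) and Eif4h lowest (124 and 82.4). Of 49 ribosome biogenesis genes 3 were higher and 6 lower, from Nolc1 (286 and 197) to Rrs1 (77.9 and 127). Of 13 RNA polymerase I genes 3 were higher and 3 lower, from Rrn3 (39.7 and 24.2) to Polr1c (252 and 353). Mitochondrial ribosomal proteins, which build a separate ribosome, had a median log2 ratio of -0.10, with 5 higher and 18 lower of 76. Of 16 mTORC1 and Myc genes 4 were higher and 4 lower, from Deptor (22.1 and 12.1) to Mxd4 (11.1 and 27.9). Of 17 other genes known as TOP mRNAs 1 was higher (Pabpc1, 520 and 632) and 3 lower, with Vim, at 17.8 and 2.91, the lowest.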

How the data were processed

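Both deposited tables hold raw UMI counts per gene and barcode, made by the authors from 10x v2 libraries, per the labels' protocols. Per the submitters' processing notes, the software was Cell Ranger (no version) and the build mm10, also called GRCm38. Which gene annotation was used is not given in the sources. Barcodes were kept at a minimum of 500 genes and a mitochondrial share below 10%, then log-normalised to 10000 UMIs and clustered jointly (scanpy 1.11.5, leidenalg 0.10.2; 2000 variable genes, 30 components, 15 neighbours, resolution 0.5). Clusters were named from marker lists. An unnamed cluster of low UMI counts (88 and 30 barcodes) was left out, as were 4 E13.5 barcodes with 0.5% or more macrophage or erythroid marker UMIs, a limit set after seeing the data. Doublets were kept; Scrublet marked 65 and 27 germ-like barcodes. Counts were summed over germ-like cells per library, and ratios are of CPM, with Clopper-Pearson intervals conditional on the sum; levels have exact Poisson intervals. Thinning was without replacement. Like genes have a similar mean in thinned cells. Copies were found with BLAST 2.17.0 on GENCODE vM21 transcripts, where all 86 members matched. Sequences are RefSeq's. The members named are the 8 highest and 8 lowest ratios at 50 CPM or more, the 3 most and 3 least abundant, paralogs, stalk members, Rps6, Rps27a and the 5 most and 5 least variable, plus 2 at each end of other lists; others named were chosen after their values were seen. Some genes that this rule takes are not reported here. The members and lists were chosen with earlier results of these data known. The ratio, dispersion and thinning steps were tested on simulated data. TMM factors came from edgeR 4.0.16.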

Additional observations from a re-analysis of the deposited data

How the results depend on the processing

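No paired analysis was possible because there was 1 library per stage. The summed log2 ratio of members, 0.0447, stayed above 0 in all settings run: 0.0465 with TMM scaling, 0.0867 with a denominator free of members, mitochondrial and the 50 most abundant genes, 0.0382 over all barcodes, 0.0283 with 2000 genes and under 5% mitochondrial UMIs, 0.0488 with equal weight per cell and 0.0512 with near-identical copies added (chosen after seeing the data). The median log2 ratio was 0.0823, 0.0334 and 0.0240 with the reduced denominator, all barcodes and the strict filter. With the reduced denominator 6 members were at least 1.2-fold higher and 4 lower, beside 25.4% and 22.5% of all genes. The log2 small over large ratio moved from -0.01215 to -0.009384 with the strict filter. The difference in median share, 0.871, was 0.789 over all barcodes, 0.469 with the strict filter and 0.864 without Scrublet calls. Median pairwise rho at E12.5 and E13.5 was 0.0308 and 0.0426 thinned to 2000 UMIs and 0.191 and 0.234 without thinning. The squared CV less counting error at E12.5 was 0.0113 thinned to 2000 UMIs, 0.0111 without Scrublet calls and 0.0108 with the strict filter; at E13.5 it was 0.0118 without Scrublet calls and 0.0116 with the strict filter. Of 240 values for single named members 157 stayed within their interval, 81 left it with the same sign, and 2 changed sign: Rps27 (0.0182) and Rps3 (0.0234), both with the reduced denominator. Rplp0 summed with Gm8730 was at -0.01. The cause of these shifts was not tested. Depth limits the correlations across cells for all members. Thinned to 2000 UMIs, the squared CV less counting error moved less, from 0.0103 to 0.0113 (E12.5) and from 0.0127 to 0.0128 (E13.5). Of the ratios of summed levels, that of Rpl3l, the rarest member, shifted most (by 0.31 on the log2 scale, with the strict filter).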
